A study of Homo sapiens with 7 samples.

Results

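The 10 genes described here encode feedback inhibitors of RAS-ERK signalling: the phosphatases DUSP1, DUSP4, DUSP5, DUSP6 and DUSP9, the Sprouty proteins SPRY1, SPRY2 and SPRY4, and the Sprouty-related proteins SPRED1 and SPRED2. They were selected by symbol from the 57773 rows of the deposited gene table, and each of the 10 symbols matched 1 row. The study concerns APE1, an endonuclease of DNA base excision repair, and its binding to G-quadruplexes, folds in which guanines of DNA pair in flat stacked rings, in the metastasis of triple-negative breast cancer. RNA was sequenced from MDA-MB-231, an established triple-negative line of mesenchymal character that carries an activating mutation in BRAF. There were 2 libraries labelled KD and 3 labelled parent, all from this line, and the labels name no drug, dose or time for either group. The protocol text speaks of APE1-knockout cells given APE1, wild-type or mutant, from a vector switched on by doxycycline. It does not say whether the KD libraries came from such cells, from 1 clone or from a pool. Nor is it stated whether replicates were separate cultures, so the p-values below measure the spread between these libraries, which may be technical.

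ERK is the last kinase of a relay in which receptor tyrosine kinases switch on RAS, RAS switches on RAF, RAF switches on MEK, and MEK phosphorylates ERK. Active ERK induces genes whose products shut the relay down. The DUSP phosphatases remove the activating phosphates from ERK and related kinases. Sprouty and SPRED proteins act further up, between the receptors and RAF. In cancer cells with mutant RAS or RAF, transcripts of these inhibitors are widely used as a readout of ERK output, because their genes are induced by ERK itself. The libraries give transcript levels only. ERK phosphorylation and protein levels were not analysed here.

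The 5 libraries held 14601078 to 18049386 counts, and 16198 genes passed the filter on low counts, all 10 feedback inhibitors among them. APEX1, the gene for APE1, stood at 43.3 and 48.3 CPM (counts per one-millionth of the TMM-scaled library) in the KD libraries and at 124 to 135 CPM in the parent libraries. It fell by 1.51 on the log2 scale (SE 0.0727, adjusted p = 5.9e-05 by edgeR's quasi-likelihood test). In such bulk libraries, fewer cells of a type and less RNA per cell cannot be told apart. The cell line markers fitted the label: the mesenchymal and basal genes VIM, CD44, CAV1, AXL, MSN and EGFR lay between 363 and 2694 CPM in every library. The epithelial genes CDH1, EPCAM and ERBB3 lay between 3.02 and 13.9 CPM. Of the hormone receptor genes, ESR1 had 0 counts throughout and PGR had counts in 1 parent library only. GRHL2 and the leukocyte gene PTPRC also had 0 counts throughout, and 0 counts allow up to 0.0988 CPM over the 2 KD libraries. The endothelial marker PECAM1 matched no gene symbol and could not be checked. Of these markers CDH1 rose (log2 fold change 1.13) and CD44, AXL and MSN fell by 0.34, 0.32 and 0.20 on the log2 scale (edgeR adjusted p = 0.00587, 0.00951, 0.0296 and 0.0317); their part in the results below was not tested.

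Of the 10 feedback inhibitors, 6 fell, 1 rose and 3 did not pass the test. DUSP1, DUSP5, DUSP6, SPRY2, SPRY4 and SPRED1 were 1.44-fold to 2.51-fold lower in KD, and DUSP9 was 5.17-fold higher. DUSP4, SPRY1 and SPRED2 did not pass. Passing means an adjusted p under 0.05, with Benjamini-Hochberg adjustment over all genes tested in the edgeR quasi-likelihood fit. In that fit 21.5% of all genes were called, 12.4% as lower and 9.15% as higher in KD. The median log2 fold change was -0.67 over the 10 inhibitors and 0.00 over all tested genes. Both KD libraries lay below every parent library for 7 of the 10 genes, a pattern found in 26.1% of all tested genes. They lay above every parent library for 1, DUSP9, a pattern found in 25.3%. For DUSP4 and SPRY1 the groups overlapped.

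**Figure D1:**
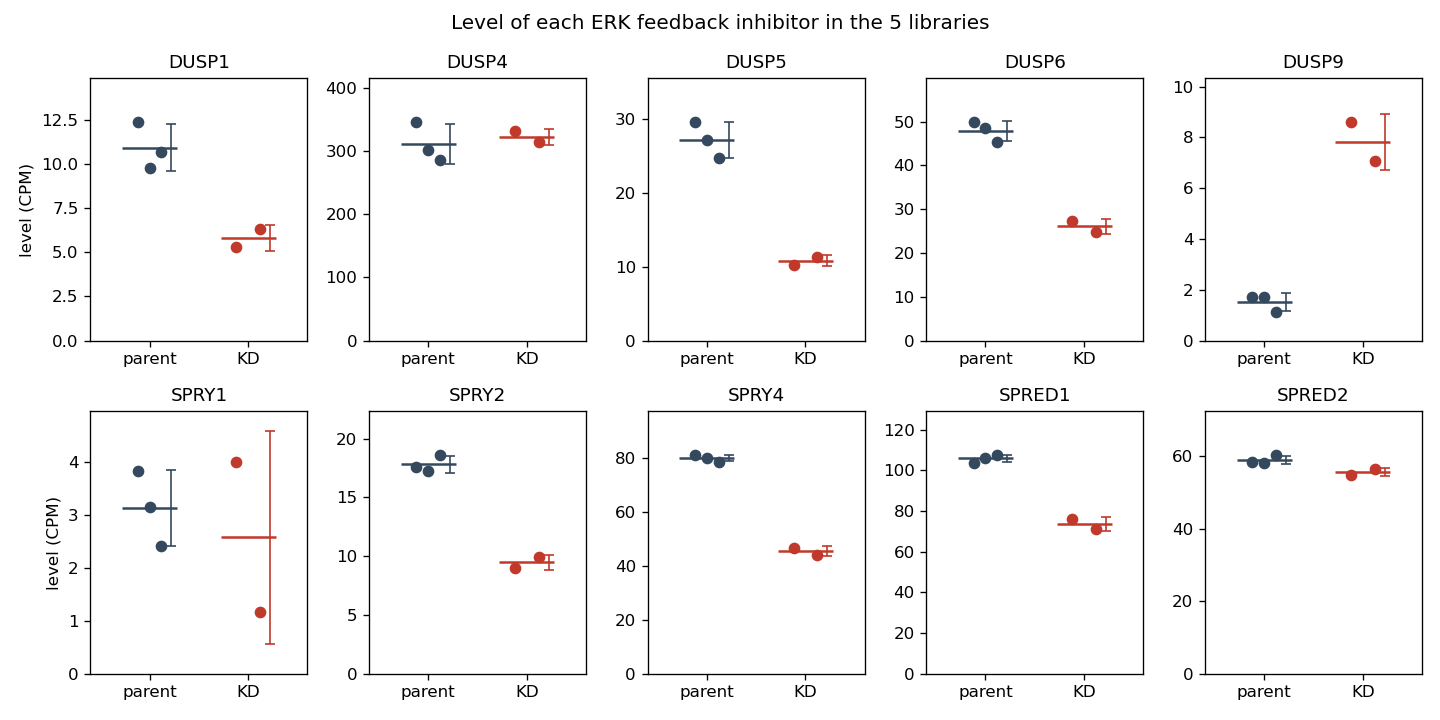
Level of each of the 10 feedback inhibitors in CPM (vertical axes, each from 0) in the 3 parent libraries (dark points) and the 2 KD libraries (red points), with the group mean as a horizontal line and the SD as a bar. KD points lie below all parent points in 7 panels, above them in the DUSP9 panel, and among them for DUSP4. For SPRY1, 1 KD point lies above and 1 below all parent points.

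DUSP1, DUSP4 and DUSP5 are phosphatases of the nucleus that are induced by mitogens. DUSP1 (ENSG00000120129), which acts on p38 and JNK as well as on ERK and is an immediate early gene, was measured at 5.28 and 6.35 CPM in KD. In the parent libraries it stood at 12.4, 9.77 and 10.7 CPM. The highest KD library was thus below the lowest parent library, by 1.54-fold. DUSP1 fell by 0.91 on the log2 scale (SE 0.154, 95% interval -1.28 to -0.54, edgeR adjusted p = 0.00734), from a mean of 10.9 ± 1.33 CPM (SD, n = 3) in parent to 5.81 ± 0.752 CPM (SD, n = 2) in KD. These levels rest on 78 and 99 counts in KD and 143 to 194 counts in parent. The call of DUSP1 was the nearest of the 7 to the threshold when a library was left out, with an edgeR adjusted p = 0.0498 without KD replicate 1, within 0.000963 to 0.0498 over 12 alternative settings.

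The bases before the DUSP1 start site are shown because they hold the element through which this gene is classically described as responding to cAMP and mitogens. They are the 250 bases upstream of the start site in RefSeq (chr5:172771196-172771445, minus strand, GRCh38.p14, a later build than that of the counts), written 5′ to 3′ on the strand of the gene. Capitals mark the cAMP response element TGACGTCA and its shorter form TGACG, searched on both strands; each full element also holds the shorter form.
DUSP1: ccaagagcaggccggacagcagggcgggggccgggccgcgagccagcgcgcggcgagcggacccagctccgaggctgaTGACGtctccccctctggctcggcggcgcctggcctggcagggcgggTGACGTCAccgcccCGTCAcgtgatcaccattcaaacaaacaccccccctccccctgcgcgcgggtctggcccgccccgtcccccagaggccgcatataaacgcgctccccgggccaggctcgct
The full element occurred once here and in 1.65% of all 35116 RefSeq windows of this length. The shorter form was matched 4 times over both strands, with the full element giving 1 match on each strand. It was present in 21.2% of all windows, and among the members also in 1 window each of SPRY2 and SPRY4.

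DUSP4 (ENSG00000120875), the nuclear phosphatase that acts on ERK and JNK, was measured at 332 and 314 CPM in KD. The parent libraries gave 346, 302 and 286 CPM, so both KD values lay inside the parent range. The difference, KD minus parent, was 0.05 ± 0.0841 on the log2 scale (SE, edgeR adjusted p = 0.714), with a 95% interval of -0.15 to 0.25. With 4426 to 5423 counts a library, the depth was not the limit of this comparison, and the interval leaves out a change of the size measured for DUSP1 or DUSP5. The sign of this small value turned without parent replicate 3 and with the replicate number as a block, where it was within 0.01 of 0.

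DUSP5 (ENSG00000138166), a nuclear phosphatase selective for ERK that also anchors ERK in the nucleus, had the lowest fold change of the 10 genes. It stood at 10.3 and 11.3 CPM in KD and at 29.6, 27.3 and 24.8 CPM in parent. The groups were separated by 2.19-fold between their nearest libraries. The level in KD was 39.8% of that in parent, a log2 fold change of -1.33 ± 0.107 (SE, edgeR adjusted p = 0.000366). DUSP5 has a pseudogene, DUSP5P1, with 22 to 37 counts a library against 152 to 464 for DUSP5. The pseudogene had 33 and 37 counts in KD and 22 to 29 in parent, and reads shared between these copies were not tested.

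DUSP6 and DUSP9 are phosphatases of the cytoplasm that prefer ERK. DUSP6 (ENSG00000139318), the most commonly used single transcript readout of ERK output, stood at 27.3 and 24.9 CPM in KD. It stood at 49.9, 48.4 and 45.4 CPM in parent, with no overlap between the groups. The KD level was 54.5% of the parent level (log2 fold change -0.88 ± 0.0767 SE, edgeR adjusted p = 0.000522).

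DUSP9 (ENSG00000130829), an X-linked gene known for its part in placental development, moved the other way. It was measured at 8.60 and 7.05 CPM in KD and at 1.72, 1.71 and 1.12 CPM in parent. The lowest KD library was 4.09-fold above the highest parent library. It rose by 2.37 ± 0.225 on the log2 scale (SE, edgeR adjusted p = 0.000701), with a 95% interval of 1.84 to 2.91. DUSP9 was a low-count gene in parent, with 20 to 27 counts a library against 127 and 110 counts in KD. It varied more between parent libraries than most of the other members, with an SD of 22.8% of the mean.

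DUSP9 and SPRY2 are the members with a G-quadruplex motif upstream of a start site, among the 8 that have a RefSeq promoter entry, the feature that the study's title is about. Their upstream bases are shown for that reason. It was read as 4 or more runs of at least 3 G with 1 to 7 bases between them. The bases between may themselves be G, so a long run can count as 2. Both strands were searched, and on the other strand the motif appears as runs of C. The bases are the 250 upstream of the first start site in RefSeq, DUSP9 at chrX:153642191-153642440 (plus strand) and SPRY2 at chr13:80341127-80341376 (minus strand), both GRCh38.p14 and written 5′ to 3′ on the strand of the gene. Capitals mark the motif and, in SPRY2, also 1 copy of TGACG.
DUSP9: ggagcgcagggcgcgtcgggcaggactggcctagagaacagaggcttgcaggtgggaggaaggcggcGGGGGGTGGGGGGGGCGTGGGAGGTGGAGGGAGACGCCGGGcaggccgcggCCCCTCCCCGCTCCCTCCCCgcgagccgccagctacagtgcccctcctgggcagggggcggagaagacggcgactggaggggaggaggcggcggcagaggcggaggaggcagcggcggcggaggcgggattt
SPRY2: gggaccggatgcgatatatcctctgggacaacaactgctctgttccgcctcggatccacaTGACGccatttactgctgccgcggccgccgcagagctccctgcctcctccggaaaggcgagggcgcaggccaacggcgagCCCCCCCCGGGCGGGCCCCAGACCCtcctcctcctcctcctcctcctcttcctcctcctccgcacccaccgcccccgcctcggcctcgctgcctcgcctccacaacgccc
DUSP9 held the motif at 2 places before its first start site, 1 on each strand, and at 1 place before its second. SPRY2 held it at 1 place before the first of its 3 start sites. That match has only 3 separate runs of C, and reaches 4 by counting its run of 8 C as 2. DUSP9 rose and SPRY2 fell, so the 2 genes with a match by this reading moved in opposite directions. The motif was present in 23.5% of all 35116 windows and in 3 of the 13 windows of the 8 members. DUSP4 and DUSP5 are named without a sequence. None of the 13 windows held the AP-1 site TGANTCA (6.57% of all windows) or a CArG box, the site of serum response factor (1.16%). The ETS core CCGGAA was found in 2 windows (14.5% of all), of SPRY1 and SPRY2, and the EGR site GCGNGGGCG in 3 (8.41%), of SPRY1, SPRY2 and SPRY4. These letter matches are descriptions of short windows; binding was not analysed here.

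The Sprouty proteins sit at the membrane and damp receptor signals to RAS and RAF. SPRY2 (ENSG00000136158), which also binds the ubiquitin ligase CBL, stood at 9.01 and 9.93 CPM in KD and at 17.6, 17.2 and 18.6 CPM in parent. The nearest libraries of the groups were 1.73-fold apart, while the libraries within a group differed by at most 1.10-fold. SPRY2 fell by 0.91 on the log2 scale (SE 0.0980, edgeR adjusted p = 0.00117), to 53.2% of the parent level. SPRY4 (ENSG00000187678) was measured at 46.7 and 44.2 CPM in KD and at 81.1, 80.1 and 78.6 CPM in parent. Its parent libraries differed by 1.03-fold between the highest and the lowest, the closest agreement among the 10 genes. The log2 fold change was -0.81 ± 0.0627 (SE, edgeR adjusted p = 0.000310), which leaves 56.8% of the parent level.

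SPRY1 (ENSG00000164056), the third Sprouty gene of the set, did not pass. It was measured at 4.00 CPM in KD replicate 1 and at 1.15 CPM in KD replicate 2, on 59 and 18 counts. The parent libraries gave 3.83, 3.14 and 2.40 CPM, on 43 to 60 counts. One KD library was therefore the highest of the 5 and the other the lowest. Their exact Poisson 95% intervals, which cover counting error only, were 3.04 to 5.15 CPM and 0.684 to 1.82 CPM, and did not meet. The log2 fold change was -0.28 ± 0.479 (SE, edgeR adjusted p = 0.724), with a 95% interval of -1.42 to 0.86 that includes the size of the SPRY2 and SPRY4 changes. It was -1.43 without KD replicate 1 and 0.36 without KD replicate 2, and neither value passed (edgeR adjusted p = 0.0696 and 0.506, within 0.0696 to 0.904 over all alternatives).

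SPRED1 and SPRED2 bring neurofibromin, the RAS-inactivating protein encoded by NF1, to the membrane. SPRED1 (ENSG00000166068), the gene mutated in Legius syndrome, stood at 76.2 and 71.3 CPM in KD and at 104, 106 and 108 CPM in parent. It fell to 69.7% of the parent level, the smallest change among the 7 that passed (log2 fold change -0.52 ± 0.0563 SE, edgeR adjusted p = 0.00120). SPRED2 (ENSG00000198369) stood at 54.8 and 56.4 CPM in KD and at 58.5, 58.1 and 60.3 CPM in parent. Both KD libraries were below all parent libraries, though only by 1.03-fold at the nearest. The log2 fold change of SPRED2 was -0.08 ± 0.0611 (SE, edgeR adjusted p = 0.378), with a 95% interval of -0.23 to 0.06.

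**Figure D2:**
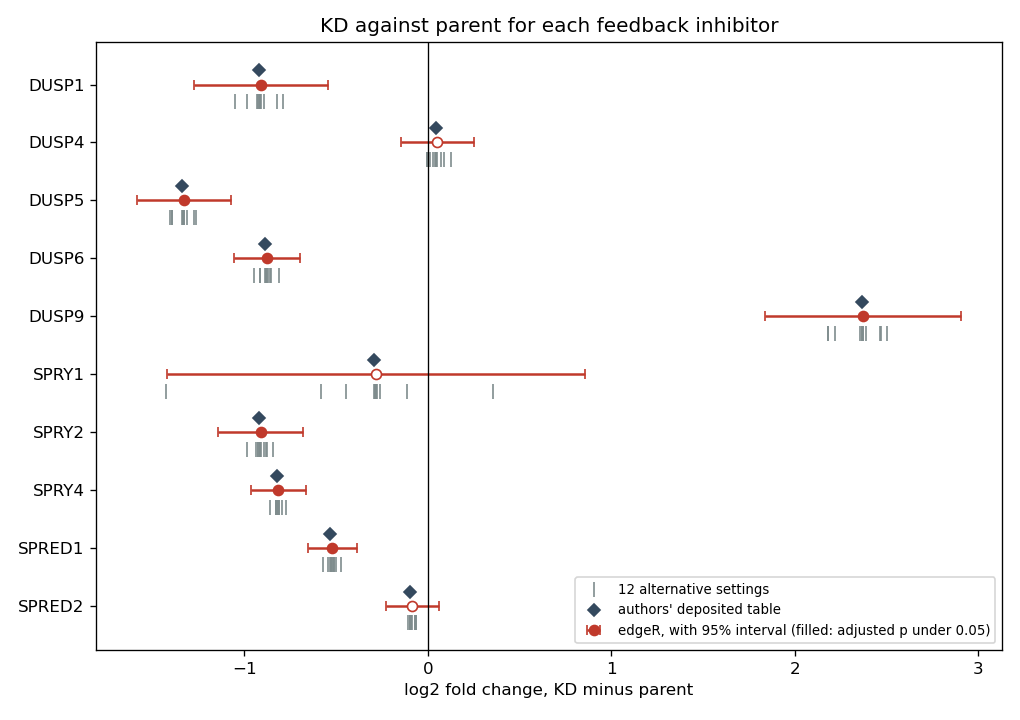
Log2 fold change of each feedback inhibitor, KD minus parent (horizontal axis). Circles are the edgeR values with their 95% intervals, filled where the adjusted p is under 0.05; diamonds are the values of the authors' deposited table and grey ticks those of 12 alternative settings. Of the 10 genes, the 6 called lower are filled to the left of 0, SPRY1 and SPRED2 lie left of 0 unfilled, DUSP9 lies at 2.37, and the ticks of SPRY1 run from -1.43 to 0.36.

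Close relatives were also compared with each other inside each library, where the scaling between libraries drops out. Counts of DUSP5 per count of DUSP4 were 0.0310 and 0.0361 in KD and 0.0856, 0.0901 and 0.0867 in parent. The log2 of this ratio was -4.90 ± 0.155 (SD, n = 2) in KD and -3.52 ± 0.0391 (SD, n = 3) in parent. Counts of SPRED1 per count of SPRED2 were 1.39 and 1.26 in KD against 1.77, 1.83 and 1.78 in parent. Neither of these ratios overlapped between the groups. Each sets a gene that fell against 1 that did not pass. The separation thus follows the falls already given for DUSP5 and SPRED1 and is no separate support. Among the levels of all tested genes, both KD libraries lay below every parent library in 26.1%. Counts of SPRY4 per count of SPRY1 were 11.7 and 38.3 in KD and 21.1, 25.5 and 32.7 in parent, and overlapped. Over the 3 pairs, a two-sided exact permutation test of the log2 ratio gave p = 0.1, 0.1 and 0.8, or 0.15, 0.15 and 0.8 after Benjamini-Hochberg adjustment. A p of 0.1 is the smallest that 2 libraries against 3 allow, so this design cannot pass a threshold of 0.05 for a single ratio.

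The summed level of the 3 Sprouty genes was 59.7 and 55.3 CPM in KD and 99.6 to 103 CPM in parent, a ratio of 0.570. The sum of the 2 SPRED genes was 131 and 128 CPM in KD and 162 to 168 CPM in parent, a ratio of 0.785. The 5 DUSP genes together gave 383 and 364 CPM in KD and 368 to 440 CPM in parent, and here the groups overlapped. Without DUSP4 the other 4 summed to 51.5 and 49.6 CPM in KD and 82.0 to 93.6 CPM in parent, a ratio of 0.577 that includes the rise of DUSP9. DUSP4 supplied 86.5 ± 0.144% (SD, n = 2) of the counts of the 5 DUSP genes in KD and 78.0 ± 0.605% (SD, n = 3) in parent. DUSP9 went from 0.378 ± 0.0685% (SD, n = 3) of these counts in parent to 2.09 ± 0.217% (SD, n = 2) in KD. Counts are not per length, so these shares do not rank the genes by number of transcripts.

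**Figure D3:**
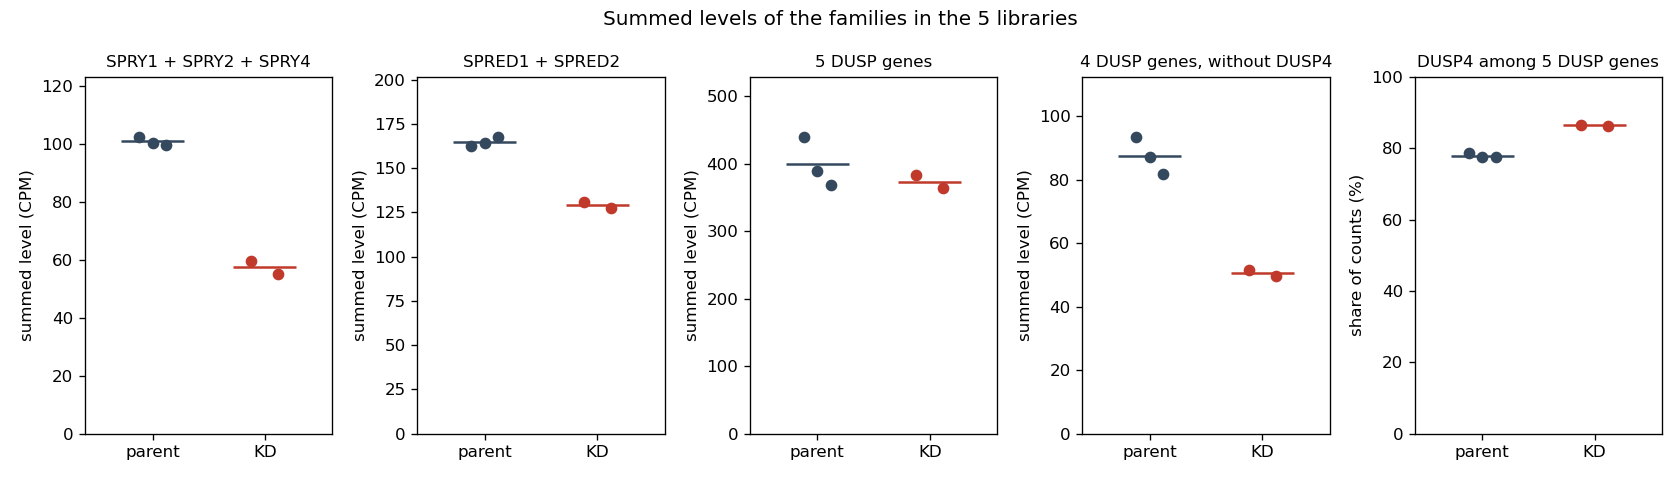
Summed levels in CPM of the SPRY, SPRED and DUSP genes, of the DUSP genes without DUSP4, and the share of DUSP4 in the counts of the 5 DUSP genes in percent (vertical axes, each from 0), for 3 parent (dark) and 2 KD (red) libraries with group means as lines. The groups overlap only in the panel of all 5 DUSP genes.

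The 7 genes that passed were the same 7 in each of the 12 alternative settings, in the same direction. The log2 fold change of DUSP5 ran from -1.40 to -1.26 over these settings, that of DUSP6 from -0.95 to -0.81 and that of DUSP9 from 2.18 to 2.51. SPRY2 ran from -0.99 to -0.85, SPRY4 from -0.86 to -0.78, SPRED1 from -0.57 to -0.48 and DUSP1 from -1.05 to -0.79. In the authors' deposited table, made with DESeq2, the same 7 genes have an adjusted p under 0.05, a call given to 13.6% of the genes that have an adjusted p there. The log2 fold changes of the authors' deposited table were within 0.0107 of the edgeR values for all 10 genes, and its standard error was larger for each, for DUSP9 0.390 and for DUSP1 0.258.

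Members were alike in profile to different degrees. Over the 5 libraries, each gene's log2 CPM was centred on its mean, and the root mean square difference between 2 genes was taken as their distance. DUSP6 and SPRY4 were each other's nearest member, at 0.0459. SPRY2 was nearest to SPRY4 at 0.0970, and DUSP1 to SPRY2 at 0.116. DUSP9 was 1.145 or more from every other member. Among all tested genes the nearest to DUSP6 was CTIF (0.0366), to SPRY4 OSBPL3 (0.0296), to SPRY2 TMEM65 (0.0278), to SPRED1 CPNE8 (0.0202), to DUSP5 CA13 (0.0382), to DUSP1 HIF1A-AS2 (0.0485) and to DUSP9 IQCA1 (0.148). This distance takes in the difference between the groups, and each pair of genes shares all 5 libraries.

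The 7 lists of other pathway genes were written with earlier results of these libraries known, so their counts are no independent support for a direction. In the relay upstream of the inhibitors, of 24 tested genes of the core cascade, 3 rose and 3 fell, with a median log2 fold change of -0.03. That is 25% called, near the 21.5% called among all tested genes. ARAF rose by 0.44 and MRAS by 0.45 on the log2 scale (edgeR adjusted p = 0.00206 and 0.00340), and KSR1, higher, and SHC1 and IQGAP1, lower, were also among those that passed. For MAPK3, a gene for ERK itself, the log2 fold change was 0.31 ± 0.113 (SE, edgeR adjusted p = 0.0989). For the MEK genes it was -0.23 ± 0.0684 for MAP2K1 and 0.06 ± 0.0472 for MAP2K2 (SE, edgeR adjusted p = 0.0556 and 0.432), and MAP2K1 passed in 4 of the 12 alternatives (range of its adjusted p 0.0325 to 0.247). BRAF did not pass (log2 fold change -0.23, edgeR adjusted p = 0.0975).

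Other inhibitors of the pathway moved in both directions. Among the further phosphatases 8.33% were called and among the other negative regulators 35.3%, against 21.5% of all tested genes. Of 12 tested further dual-specificity phosphatases, 1 rose and 0 fell: DUSP16, which acts on JNK and p38, at 34.6 ± 2.05 against 25.9 ± 0.845 CPM (edgeR adjusted p = 0.00598, and 0.0626 without KD replicate 2, within 0.00435 to 0.0626). Of 17 other negative regulators of RAS and ERK, 2 rose and 4 fell; without KD replicate 2 or parent replicate 2, 0 rose, and without KD replicate 1 or parent replicate 3, 1 rose. The RAS GTPase-activating genes RASA1, RASA2 and DAB2IP fell to 59.5%, 62.2% and 65.2% of the parent level (edgeR adjusted p = 0.000312, 0.00178 and 0.00111). NF1, the partner of the SPRED proteins, stood at 42.1 ± 2.99 CPM in KD against 42.6 ± 2.31 CPM in parent (edgeR adjusted p = 0.896), with a sign that turned in 3 alternatives. SPRED3 stood at 1.06 ± 0.414 against 1.36 ± 0.0800 CPM (edgeR adjusted p = 0.467), and SPRY3 had 0 counts in both KD libraries and 2 in each parent library, below the filter.

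The genes that ERK induces include growth factors, transcription factors and cell cycle genes. Of 30 tested ERK-responsive target genes, 20 fell and 0 rose, with a median of -0.52, against 12.4% lower among all genes. The EGF receptor ligands HBEGF and TGFA stood at 28.7 ± 0.610 and 23.8 ± 1.81 CPM in KD against 88.0 ± 4.05 and 102 ± 10.1 CPM in parent (edgeR adjusted p = 4.4e-05 and 6.7e-05). The ETS factor ETV1 fell to 47.1% of the parent level (edgeR adjusted p = 0.000185).

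In the other lists both directions occurred, as they did among all tested genes, of which 12.4% were called lower and 9.15% higher. The share called was 50% for the receptor tyrosine kinases and 33.3% for the JNK, p38 and ERK5 kinases. For the kinases and transcription factors downstream of ERK it was 35.7%, against 21.5% of all tested genes. Of 16 receptor tyrosine kinases 3 rose and 5 fell, and 1 rose without KD replicate 1 or parent replicate 2. Among those that fell were IGF1R at 12.4 ± 1.09 against 45.8 ± 5.76 CPM and MET at 165 ± 4.13 against 235 ± 5.54 CPM (edgeR adjusted p = 0.000196 and 0.000626). KDR had 0 counts in KD and 4.24 ± 0.386 CPM in parent, at least 42.9-fold lower against 3 counts over the 2 KD libraries. Of 12 JNK, p38 and ERK5 kinases, the other substrates of the DUSP family and their activators, 2 rose and 2 fell; 0 rose without KD replicate 1 or 2, and 1 rose without any single parent replicate. MAPK8, the gene for JNK1, fell to 61.7% of the parent level (edgeR adjusted p = 0.00111). MAP2K6 had 2 counts in KD, both in KD replicate 1, and 96 in parent (ratio 0.0331, counting interval 0.00395 to 0.123). Its fitted log2 fold change of -4.78 became -3.82 without KD replicate 2 and -8.01 without KD replicate 1, where the KD count is 0 and the value depends on the prior count. MAPK12 rose by 0.42 on the log2 scale (edgeR adjusted p = 0.00997). MAPK12 missed the threshold without KD replicate 1 or 2 (0.0532 and 0.0522, within 0.000621 to 0.0532). Of 14 kinases and transcription factors that are ERK substrates or act downstream of ERK, 1 rose and 4 fell, and 2 fell without parent replicate 2. RPS6KA2 fell by 0.94 and ELK3 by 0.38 on the log2 scale (edgeR adjusted p = 0.00106 and 0.00321). RPS6KA3 rose by 0.23 (edgeR adjusted p = 0.0163) but not without KD replicate 1 or 2 or parent replicate 2 (0.134, 0.0595 and 0.0746, within 0.00562 to 0.134).

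**Figure D4:**
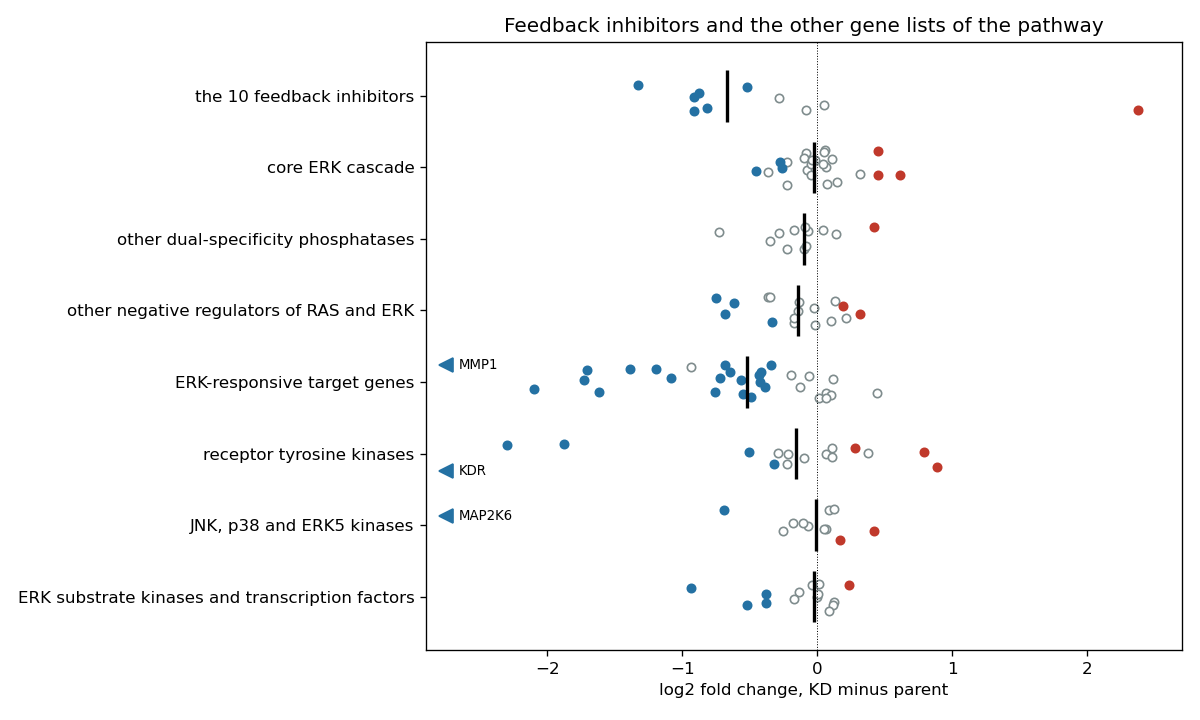
Log2 fold change, KD minus parent (horizontal axis), of each tested gene of the 10 feedback inhibitors and of 7 gene lists of the pathway. Blue points passed as lower, red points as higher, open points did not pass; black bars are list medians, and triangles are 3 named genes beyond the left edge with 0 to 2 counts in KD. The medians of the inhibitors (-0.67) and of the ERK-responsive targets (-0.52) lie left of the others.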

How the data were processed

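RNA-seq covered 2 KD and 3 parent libraries of MDA-MB-231; groups and replicate numbers come from the sample titles. Expected counts, as whole numbers, were deposited by the authors per gene and per transcript, with equal totals in each library. Per the submitters' processing notes, STAR, DESeq2 and the build hg19 were used. For the counter, annotation and strandedness, nothing is given in the sources used here, so reads of genes that overlap on opposite strands may not be told apart. The transcript table was used for its totals only, since no table given pairs its identifiers with genes. The authors' deposited comparison holds, per the file headers, a mean signal, a log2 fold change and its standard error, a test score, a p-value and an adjusted p-value. The 2 samples of genomic DNA, labelled as chromatin immunoprecipitation of APE1 and its input, were not analysed here.

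Counts were filtered with filterByExpr (minimum count 10, minimum total 15), scaled with TMM factors and tested with edgeR 4.0.16 in R 4.3.3 (quasi-likelihood, group as the only term, 3 residual degrees of freedom). CPM are on the scaled libraries. Standard errors are the size of the log2 fold change over the root of F, and 95% intervals use the t quantile of the fit. The code was tested on simulated data. Alternatives were DESeq2 1.42.0, its size factors, library totals alone, robust estimation, 2 other filters, each library left out, and a replicate block. The 10 genes and the 7 lists were chosen with earlier results of these data known. Genes named in a list are the 3 called with the smallest adjusted p, plus a few core genes named in any case, of which some are not reported here; KSR1, SHC1, IQGAP1 and DUSP5P1 were named after their values were seen. Promoter windows and gene names for them come from RefSeq on GRCh38.p14.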

Additional observations from a re-analysis of the deposited data

How the results depend on the processing

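Over 12 alternatives, 117 of 120 values of the 10 inhibitors kept their direction and their side of the threshold, and 7 members were called in each. The exceptions were genes that did not pass. DUSP4 ran from -0.0071 (without parent replicate 3) to 0.127 (without parent replicate 1) on the log2 scale when libraries were left out, and was -0.0040 with the replicate block. SPRY1 ran from -1.43 (without KD replicate 1) to 0.357 (without KD replicate 2). Leaving out 1 library moved the number of genes called in the whole table from 3485 to between 1823 and 3383, with 553 to 1413 higher and 1270 to 1970 lower; the lowest count was without KD replicate 1. It was 2076 without KD replicate 2 and 2029 without parent replicate 2. With 1 KD library left, that library is assumed to vary like the parent libraries.

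With the replicate number as a block, 3940 genes were called. The correlation over genes of deviations from the group means was 0.0725 for the libraries numbered 1 and -0.0274 for those numbered 2. With 2 KD libraries these deviations are mirror images of each other. The values therefore cannot show whether libraries of the same number share a batch. Among the lists, the number called higher fell without KD replicate 2 for the further phosphatases and the other negative regulators. The same held for the JNK, p38 and ERK5 kinases and the ERK substrates. In all of these lists but the further phosphatases, that number also fell when certain other libraries were left out, as given above. The cause was not tested. The ERK-responsive targets had 18 to 21 called lower, and 1 called higher with the replicate block. Counts under 100 a library limit the precision of SPRY1, SPRED3, DUSP1 in KD and DUSP9 in parent. Transcripts of the 10 genes were not tested, also with libraries left out, because their identifiers could not be paired with genes.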
